A study of Mus musculus with 2 samples.

Results

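The cytotoxic granule and NK receptor genes described here are Gzma, Gzmb, Gzmk, Prf1, Nkg7, Klrd1, Klrk1, Ncr1 and Klrg1, 9 of the 27998 genes measured. They were chosen by gene symbol, and all 9 were listed in both tables. Single-cell RNA sequencing was performed on whole lung of male C57Bl/6J mice aged 3 months, 14 days after 100 µg of TiO2 or crocidolite asbestos was given intratracheally. There were 2 libraries, one labelled control and one labelled fibrosis, each from 1 mouse. Crocidolite is a mineral fibre that scars the lung and TiO2 is a particle used as its comparator, but the labels name both particles for every sample, so only the words control and fibrosis are used for them. No difference between them had a replicate check, and no test between them was possible.

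The control library held 8280 cells with 36632591 transcripts counted as unique molecular identifiers (UMIs), and the fibrosis library held 7173 cells with 38090308 UMIs. The shallowest deposited cell had 1460 UMIs in control lung and 1915 in fibrosis lung, and the libraries shared 89 cell barcodes. After filtering and removal of likely doublets, 7510 control and 6559 fibrosis cells were kept. Levels are given as CPM, the UMIs of a gene per 1000000 UMIs of a class of cells in a library. All intervals are 95% intervals of counting error and do not cover the spread between mice.

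Natural killer (NK) cells and cytotoxic T cells kill target cells by releasing granules that hold perforin and granzymes. Perforin, encoded by Prf1, forms pores in the target membrane, and granzymes are serine proteases that pass into the target. Granzyme A and granzyme B, encoded by Gzma and Gzmb, are the granzymes best known in NK cells, whereas granzyme K, encoded by Gzmk, is best known from subsets of T cells. Nkg7 encodes a membrane protein of the granules. Release is governed by surface receptors. Klrd1 encodes CD94, the partner of the NKG2 family receptors that read Qa-1 on other cells. Klrk1 encodes NKG2D, an activating receptor for stress-induced ligands, and Ncr1 encodes NKp46, an activating receptor that marks NK cells and some innate lymphoid cells. Klrg1 encodes an inhibitory receptor for cadherins, found on mature NK cells, effector T cells, a subset of regulatory T cells and group 2 innate lymphoid cells (ILC2).

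On GRCm38, the members are protein-coding genes on 5 chromosomes. Gzma (chr13:113093825-113100981, minus strand) and Gzmk (chr13:113171608-113225908, minus strand) lie beside each other in one granzyme locus. Gzmb (chr14:56258838-56262260, minus strand) lies in another. Klrg1 (chr6:122270596-122282882, minus strand), Klrd1 (chr6:129591782-129598775, plus strand) and Klrk1 (chr6:129610323-129623864, minus strand) lie on chromosome 6. Nkg7 (chr7:43437073-43438249, plus strand), Ncr1 (chr7:4337724-4345164, plus strand) and Prf1 (chr10:61297833-61304680, plus strand) complete the set.

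RefSeq promoter sequence on GRCm38.p6 was found for 7 of the 9 members, Klrd1 and Klrg1 being the others. The 250 bases upstream of each annotated start were searched on both strands for TGTGGT, the core bound by RUNX factors, for GGTGTG, part of the T-box element, and for AGGAAG, an ETS core. The RUNX letters occurred upstream of 6 of the 7 members, compared with 15.9% of all 27025 genes in the table. The T-box letters occurred in 2 of the 7, against 18.3% of all genes, and the ETS letters in 2 of the 7, against 32.3%. Counted by promoter, the shares of all 32851 windows of this length were 14.0%, 16.3% and 29.5%. A match of this kind is a description of letters and shows no binding. The windows of the 2 granzymes most abundant in NK-like cells, of Ncr1, and of Gzmk, the member without the RUNX letters, are printed 5′ to 3′ on the strand of the gene. They cover chr13:113100982-113101231 for Gzma, chr14:56262335-56262584 for Gzmb, chr7:4337465-4337714 for the first of the Ncr1 starts in the table, and chr13:113180966-113181215 for Gzmk. Capitals mark TGTGGT or its reverse complement ACCACA in the first of these genes and in Gzmb and Ncr1, and GGTGTG in Gzmk. The Gzmk window lies upstream of its RefSeq start but inside the GENCODE span of the gene given above.
Gzma: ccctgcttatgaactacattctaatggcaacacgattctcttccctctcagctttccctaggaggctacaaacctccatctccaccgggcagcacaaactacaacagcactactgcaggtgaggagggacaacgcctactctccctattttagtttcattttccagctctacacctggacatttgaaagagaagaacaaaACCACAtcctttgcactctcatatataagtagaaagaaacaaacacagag
Gzmb: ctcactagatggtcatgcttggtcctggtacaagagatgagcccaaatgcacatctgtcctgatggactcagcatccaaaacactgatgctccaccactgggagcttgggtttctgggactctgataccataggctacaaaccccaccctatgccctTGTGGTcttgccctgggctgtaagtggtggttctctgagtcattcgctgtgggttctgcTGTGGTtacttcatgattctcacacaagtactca
Ncr1: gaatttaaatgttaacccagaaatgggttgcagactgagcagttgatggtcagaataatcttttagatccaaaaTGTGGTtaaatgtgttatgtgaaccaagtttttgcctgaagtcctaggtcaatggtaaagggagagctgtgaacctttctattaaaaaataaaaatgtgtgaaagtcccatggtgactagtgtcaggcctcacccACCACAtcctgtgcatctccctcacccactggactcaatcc
Gzmk: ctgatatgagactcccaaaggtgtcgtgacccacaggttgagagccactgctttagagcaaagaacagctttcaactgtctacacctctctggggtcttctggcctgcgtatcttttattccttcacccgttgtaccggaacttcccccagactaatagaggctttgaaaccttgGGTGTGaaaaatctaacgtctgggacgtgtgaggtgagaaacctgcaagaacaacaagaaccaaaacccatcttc

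Cells were assigned to classes by marker transcripts that are not members. An NK-like cell had at least 2 UMIs of Klrb1c, Klre1, Klra3, Klra4, Klra7, Klra8, Klra9 and Eomes together and at most 1 UMI of Cd3d, Cd3e and Cd3g. A T-like cell had the converse, and a cell with at least 2 UMIs of both lists was called a T cell with NK receptors. NK-like cells carried a median of 10 UMIs of the NK list in both libraries. They numbered 299 in the control library, 3.98% of kept cells (3.55 to 4.45), and 138 in the fibrosis library, 2.10% (1.77 to 2.48). Among gated blood-lineage cells they made up 5.57% and 3.89%. T-like cells numbered 554 and 558, and T cells with NK receptors 50 and 34. When control cells were held to the lowest total of the fibrosis library, 1915 UMIs, the control share of NK-like cells was 2.63%. Some cells with the NK list were set aside because they also held UMIs of another lineage, and were left unresolved (22 control and 64 fibrosis cells) or placed in that lineage (9 and 14 cells). With all of them counted as NK-like, the share was 4.39% of control and 3.29% of fibrosis cells. How far depth at deposition and mixed cells shaped these shares was not tested.

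NK-like cells held most of the UMIs of these genes in both libraries. Of 18450 member UMIs in control cells, 75% (74.4 to 75.6) lay in NK-like cells, as did 52.1% (51.1 to 53.0) of 11032 in fibrosis cells. Ncr1 was the receptor most restricted to them, with 83.1% of its UMIs in control lung and 68.0% in fibrosis lung. For Gzma these shares were 85.4% and 64.7%, for Prf1 81.0% and 61.4%, and for Gzmb 74.3% and 63.0%. Klrd1 was spread more widely, with 52.2% and 27.1%. Klrg1 shifted furthest between classes. NK-like cells held 64.3% of its UMIs in control lung and 15.6% in fibrosis lung, whereas T-like cells held 13.4% and 52.6%. Unresolved cells, those with markers of several lineages or of none, held 6.91% of member UMIs in control lung and 19.4% in fibrosis lung. Their part in the lower NK-like shares was not tested.

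**Figure D1:**
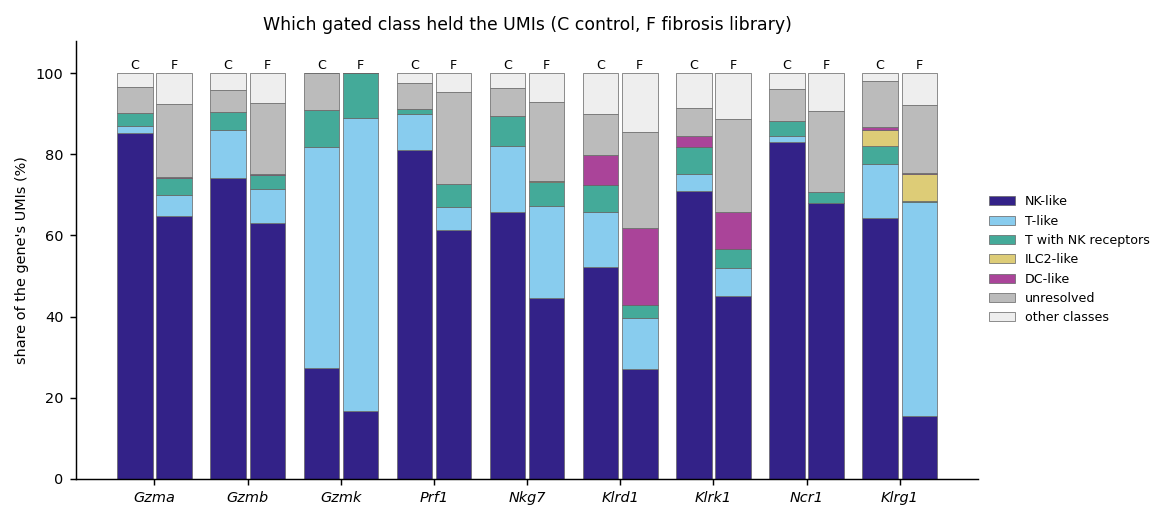
Share of the UMIs of each gene (vertical axis, %) found in each gated class, in all kept cells of the control (C) and fibrosis (F) library. NK-like cells held 75% of all member UMIs in control lung and 52.1% in fibrosis lung, and Klrg1 lay mostly in T-like cells in the fibrosis library.

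Gzma was the most abundant granule gene in NK-like cells. Its level there was 10785 CPM (7321 UMIs) in the control and 8175 CPM (3078 UMIs) in the fibrosis library. Nkg7 followed with 5212 and 3660 CPM. Gzmb stood at 1042 and 847 CPM, well below Gzma in both libraries. Prf1 was read far less often, at 94.3 CPM (64 UMIs) and 143 CPM (54 UMIs). Gzmk was close to absent from NK-like cells, with 6 and 3 UMIs. These are counts of captured 3′ transcript ends and are not scaled by length.

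The receptors formed a middle tier. Klrk1 was at 1218 CPM in the control and 879 CPM in the fibrosis library, and Klrd1 at 1201 and 869 CPM. These 2 genes did not differ from each other beyond counting error in either library. Ncr1 was at 679 CPM (interval 619 to 744) and 547 CPM (475 to 627). Klrg1 was lowest of the receptors, at 149 CPM (101 UMIs) and 133 CPM (50 UMIs).

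Summed over the class, T cells with NK receptors lay between NK-like and T-like cells for most members. Gzma was at 1565 CPM in the control and 1670 CPM in the fibrosis library in these cells, whereas T-like cells had 91.7 and 152 CPM. Only 10 of 50 control and 10 of 34 fibrosis T cells with NK receptors held a Gzma UMI. In each library 5 of these cells held most of the UMIs, 81.9% and 69.9%. Nkg7 was at 2249 and 1593 CPM in T cells with NK receptors and at 549 and 428 CPM in T-like cells. Klrg1 in T cells with NK receptors was at 40.6 CPM (7 UMIs) in the control library, between the other classes, and at 8.52 CPM (1 UMI) in the fibrosis library, below both. B-like cells, which should lack these genes, held Gzma at 27.1 CPM in the control and 10.6 CPM in the fibrosis library. In other classes that should lack it, the level was 14.4 and 94.0 CPM in neutrophil-like and 11.4 and 47.8 CPM in endothelial-like cells. It was 9.34 and 41.0 CPM in stromal-like, 9.79 and 11.6 CPM in mononuclear-like and 8.46 and 9.78 CPM in epithelial-like cells. In the fibrosis library, 5 neutrophil-like cells held all 49 UMIs. The highest endothelial-like cell there held 21 of 38 and the highest stromal-like cell 19 of 22. Cells with a Gzma UMI were 3.67% of control and 3.36% of fibrosis neutrophil-like cells.

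**Figure D2:**
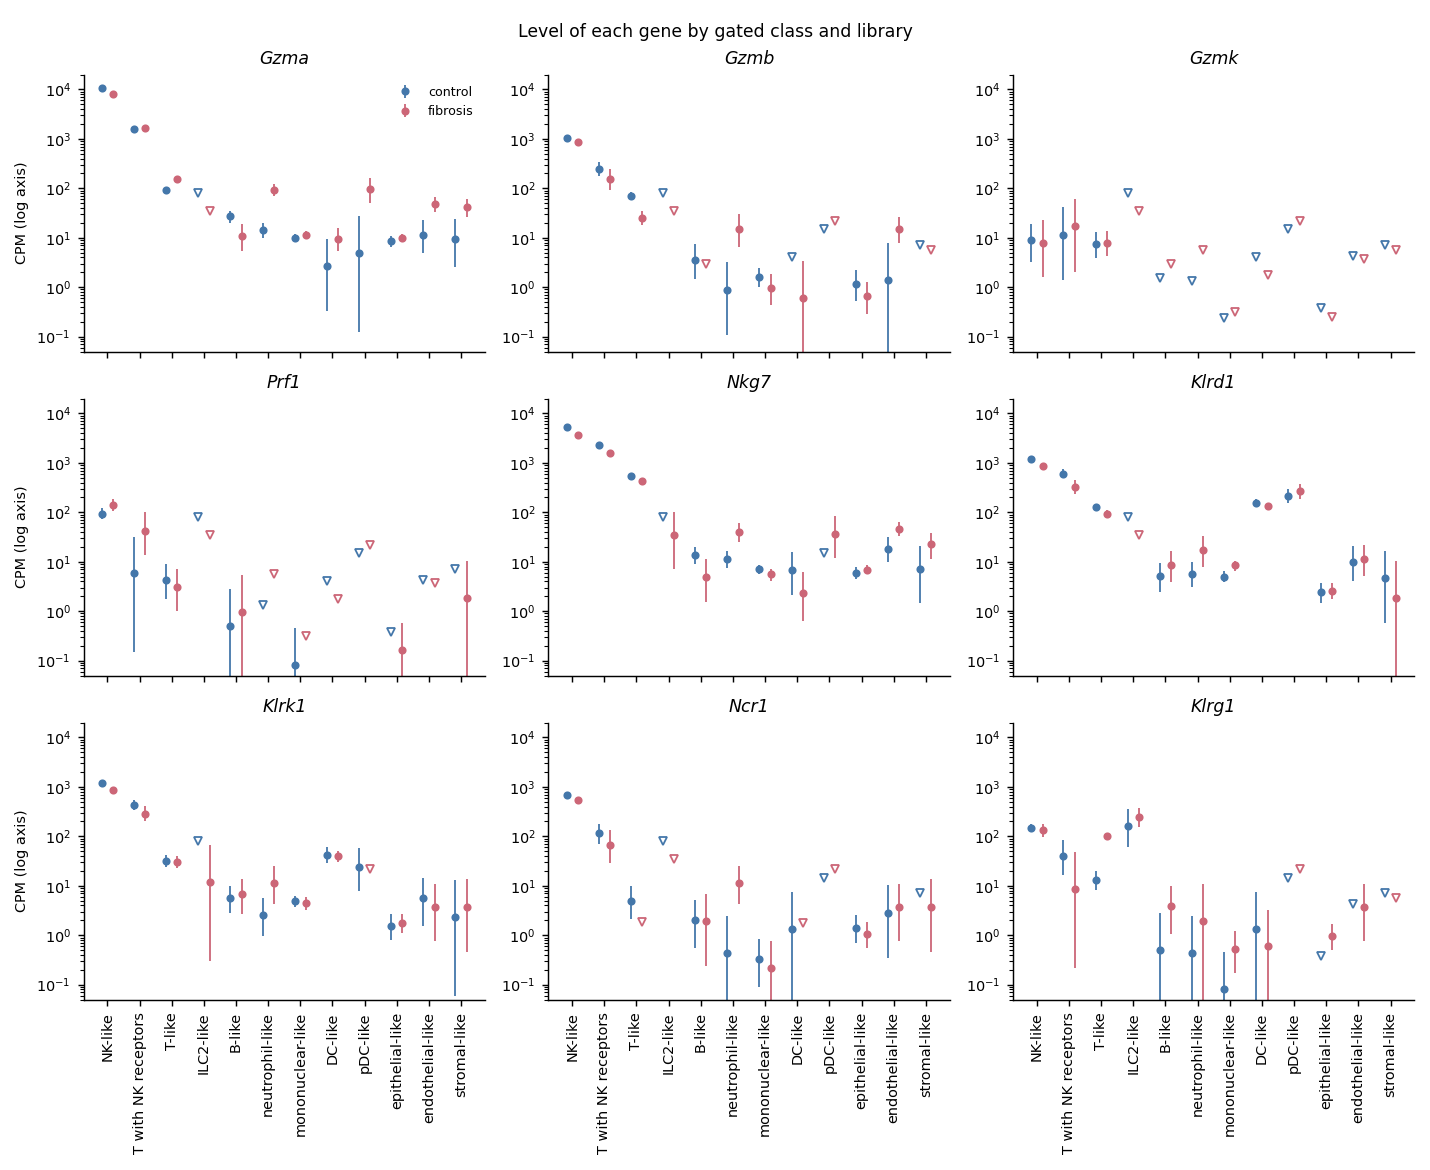
Level of each gene (CPM, log axis) in each gated class of the control and fibrosis library; bars are exact Poisson 95% intervals, and open triangles mark the level that 3 UMIs would give where none was counted. Gzma in NK-like cells stood at 10785 and 8175 CPM, against 27.1 and 10.6 CPM in B-like cells.

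Between the libraries, 7 of the 8 members with at least 20 UMIs in NK-like cells had a lower level in the fibrosis library, none of them by as much as 1.5-fold. Over all 5088 genes with that many UMIs, 14% were lower by 1.5-fold or more, and 55.0% had a ratio below 0 on the log2 scale. The median log2 ratio of fibrosis over control was −0.35 for the members and −0.05 for all genes. Prf1 alone passed the fold, and it was higher in the fibrosis library, as were 10.4% of all genes tested. No list-wide shift can be read from 1 library in each group.

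For the granule genes in NK-like cells, the log2 ratio of Gzma was −0.40 (−0.46 to −0.34), that of Nkg7 −0.51 and that of Gzmb −0.30 (−0.49 to −0.11). Prf1, the pore-forming partner of these proteases, had a log2 ratio of 0.61 (0.06 to 1.15). It rested on 64 and 54 UMIs and was 0.01 when cells with UMIs of another lineage were admitted, and 0.47 without cycling cells. Among the receptors, the log2 ratio was −0.47 for Klrd1, −0.47 for Klrk1, −0.31 for Ncr1 and −0.16 (−0.68 to 0.34) for Klrg1, whose interval includes no difference.

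These ratios moved with the depth of the cells and with the purity asked of them. With control cells held to 1915 UMIs or more, the median log2 ratio of the members was −0.20, with Gzma at −0.23 and Gzmb at −0.07, and Klrg1 turned to 0.14. With cells of mixed lineage admitted, the median was −1.02 and 7 members were lower by 1.5-fold or more. No share of all genes at that setting stands beside this count, and nothing particular to the members is read from it. NK-like cells had a median of 1950 UMIs in control lung and 2372.5 in fibrosis lung. Transcripts of other cells were present in both: all 10 markers of epithelial, neutrophil and macrophage cells on a list added after the data were seen were detected in NK-like cells, together at 10884 CPM in the control and 8292 CPM in the fibrosis library. Scgb1a1, a club cell secretory gene, led this list with 7164 and 4292 CPM. Retnla, a macrophage gene, was at 4.42 and 162 CPM. The part of such transcripts in the ratios was not tested.

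**Figure D3:**
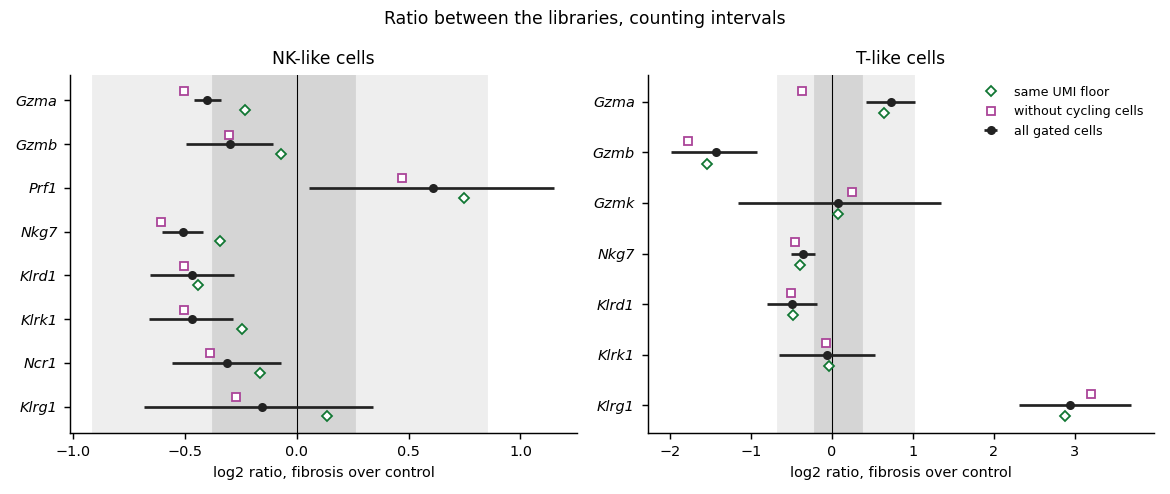
Log2 ratio of fibrosis over control for each gene with at least 20 UMIs, in NK-like cells (left) and T-like cells (right). Filled points with bars are all gated cells with the exact interval of counting error, diamonds are cells with at least 1915 UMIs, squares leave out cycling cells, and grey bands hold the middle 50% and 90% of all genes tested; Gzma in T-like cells moves from 0.72 to −0.37 without cycling cells.

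Single NK-like cells varied widely in their load of granule transcripts. Gzma ranged from 0 to 39.9 UMIs per 1000 UMIs of a cell in the control library, with a median of 11.3, and from 0 to 27.5 with a median of 7.15 in the fibrosis library. Nkg7 had medians of 5.23 and 3.52 on the same scale and was missing from no control and 2 fibrosis NK-like cells. Gzma was missing from 8 control cells (2.68%) and 9 fibrosis cells (6.52%). Gzmb had no UMI in 27.1% of control and 41.3% of fibrosis NK-like cells. The median cell held 1 Gzmb UMI in both libraries, so a count of 0 does not show that a cell lacked the transcript.

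After each cell was thinned to 1000 UMIs, Gzma was detected in 95.7% of control and 92.0% of fibrosis NK-like cells, against 1.57% and 0.54% of B-like cells. Gzmb was detected in 57.5% and 40.6% of NK-like cells, Klrd1 in 68.2% and 54.3%, Klrk1 in 68.2% and 58.0%, and Ncr1 in 55.9% and 39.1%. Klrg1, at 149 and 133 CPM, was detected in 13.7% and 13%. Prf1 went the other way, from 9.03% to 16.7%. Genes as low as Klrg1 and Prf1 can be missed in most cells at this depth, so these shares do not count the cells expressing them. An NK-like cell showed a median of 5 of the 9 members in control lung and 4 in fibrosis lung at this depth, and a T-like cell a median of 0 in both.

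Correlations of the members from cell to cell were low in the thinned counts. Most members leave few UMIs in a cell at that depth, which by itself holds a correlation down. How tightly their expression was linked was therefore not tested. Over the 437 thinned NK-like cells of both libraries, which share library and depth, the highest Pearson correlation was 0.43, between Gzma and Nkg7. Between Gzma and Gzmb the correlation was 0.23, with 0.33 in control cells alone and 0.03 in fibrosis cells alone. Other pairs had 0.21 (Gzma and Klrg1) and −0.07 (Gzmb and Ncr1). These are descriptions over cells of 2 mice and have no p-value.

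**Figure D4:**
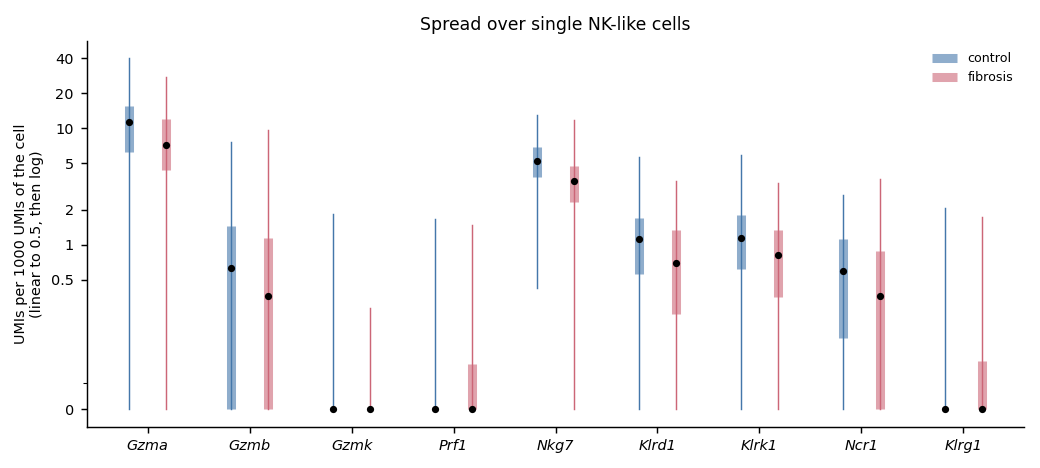
UMIs of each gene per 1000 UMIs of the cell (linear to 0.5, then log) in 299 control and 138 fibrosis NK-like cells; thin lines span the lowest to the highest cell, thick bars the middle 50%, and black points mark medians. The median of Gzma was 11.3 in control lung and 7.15 in fibrosis lung, and both ranges overlap over most of their length.

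Other genes of the killing machinery, from lists written with the members, moved in both directions in NK-like cells. Beside these lists stand the shares of all genes tested in NK-like cells, 10.4% higher and 14% lower by 1.5-fold, and nothing particular to a list is read from its count. Of 14 granule genes tested, 2 were higher and 3 lower. Lamp1, a lysosomal membrane protein that reaches the cell surface on degranulation, had a log2 ratio of 0.99, and Rab27a, which docks granules, 0.74. Stx11 and its partner Stxbp2, which act in granule fusion, had −1.86 and −0.78. Cst7, a cystatin of granule-bearing cells, had −0.63. Stx11 rested on 29 and 4 UMIs. The intervals of Rab27a (−0.13 to 1.59) and Stxbp2 (−1.95 to 0.19) include no difference.

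Of 13 further NK receptors, 1 was higher and 4 were lower by that fold in NK-like cells. Cd226, an activating receptor, had a log2 ratio of 1.36 on 9 and 13 UMIs. The lower genes were Klra1 (−0.76), Klrb1a (−0.69), Cd244 (−0.69) and Slamf7 (−0.67), and the intervals of Klra1 and Slamf7 include no difference. Of 8 signalling adaptors, the ITAM chain Cd247 (−1.10) and the kinase Zap70 (−0.68) were lower and the kinase Syk (0.94) was higher. Tyrobp and Hcst, the adaptors used by NKG2D, stayed within the fold at −0.22 and −0.02. Of 7 transcription factors, Prdm1 (−1.21) was lower, while Tbx21, which encodes T-bet, was at 0.10. Of 12 maturation genes, Cd27 (−0.77), Cma1 (−0.97) and Ly6c2 (−0.91) were lower. None of 6 genes of the IL-15 and IL-2 axis passed the fold.

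In T-like cells, 7 members had at least 20 UMIs. Of these, 2 were higher and 1 lower by 1.5-fold or more in the fibrosis library, compared with 15% and 6.89% of all 7785 genes tested. Prf1 had 7 and 5 UMIs and Ncr1 8 and 0, so neither entered the comparison. The 2 higher genes were Klrg1 and Gzma, and the lower gene was Gzmb.

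Klrg1, the cadherin receptor, had 21 UMIs in control T-like cells and 169 in fibrosis T-like cells, or 13.1 CPM (8.11 to 20) and 103 CPM (87.9 to 120). The log2 ratio was 2.94 (2.31 to 3.70), a 7.69-fold higher level that ranked 23 among the 7785 genes. Cells with a Klrg1 UMI numbered 8 of 554 in the control (1.44%) and 67 of 558 in the fibrosis library (12%). At 1000 UMIs per cell, the shares were 0.72% and 5.56%, and no B-like cell had a Klrg1 UMI at that depth, 0 of 889 and 0 of 371, which by the limit of 3 counts allows up to 0.337% and 0.809% of cells with a UMI at that depth and sets no limit on cells expressing the gene. The listed markers of epithelial, neutrophil and macrophage cells were together at 8904 CPM in control and 8622 CPM in fibrosis T-like cells. The median depth of T-like cells was close in the libraries, at 2642.5 and 2614.5 UMIs. When T-like cells were taken from Leiden clusters in place of gates, the log2 ratio was 1.89 (0.34 to 4.07).

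The Klrg1 UMIs of T-like cells were spread over several kinds of T cell. Of the 169 UMIs in the fibrosis library, 68 lay in the 33 regulatory-like cells, defined by a UMI of Foxp3, the master regulator of regulatory T cells, and 30 in the 65 CD4-like cells. The 210 CD8-like cells held 17. Another 52 lay in the 246 cells with no Cd4, Cd8a, Cd8b1 or Foxp3 UMI, whose kind could not be determined and which were 25 of the 67 cells with Klrg1. In the control library, 10 of 21 UMIs lay in such undetermined cells, 9 in 12 regulatory-like cells and 2 in 226 CD8-like cells. Klrg1 was detected in 19 of 33 regulatory-like cells in the fibrosis library and in 2 of 12 in the control library. Its level in these cells was 563 and 200 CPM respectively, and in CD8-like cells 25.7 and 2.72 CPM.

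Genes of type 2 lymphocytes marked many of the same cells. Of the 67 fibrosis T-like cells with Klrg1, 49.3% had a UMI of Il1rl1, the IL-33 receptor, against 1.63% of the 491 without. For Gata3, the factor of type 2 lymphocytes, the shares were 49.3% and 13.9%, and for Rora 55.2% and 9.37%. For Foxp3 they were 28.4% and 2.85%, for Il2ra, the high-affinity IL-2 receptor chain, 41.8% and 4.28%, and for the costimulatory receptor Icos 49.3% and 16.9%. Cd8b1 went the other way, with 19.4% and 37.5%. Il13 had a UMI in 8.96% and 0.20%, and Il5 in no fibrosis T-like cell. Cells with Klrg1 were slightly deeper, with a median of 2949 against 2600 UMIs.

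T-like cells with at least 3 UMIs of the ILC2 list (Gata3, Il1rl1, Rora, Il17rb, Il5 and Il13) were then set apart, a division chosen after the values had been seen. They made up 2.17% (1.12 to 3.75) of control and 10.2% (7.83 to 13) of fibrosis T-like cells, and held 12 of 21 and 111 of 169 Klrg1 UMIs. Regulatory-like cells made up 2.17% (1.12 to 3.75) and 5.91% (4.11 to 8.21). The groups shared 2 control and 19 fibrosis cells. The shared cells held 9 of the 12 control and 61 of the 111 fibrosis Klrg1 UMIs of the type 2 list cells. Without the cells of the type 2 list, the log2 ratio of Klrg1 in T-like cells was 2.75 (1.79 to 4.01), on 9 and 58 UMIs. ILC2-like cells, which lack the CD3 transcripts, also carried Klrg1, with 6 UMIs in 12 control cells (163 CPM) and 21 UMIs in 32 fibrosis cells (246 CPM), and their intervals overlapped.

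**Figure D5:**
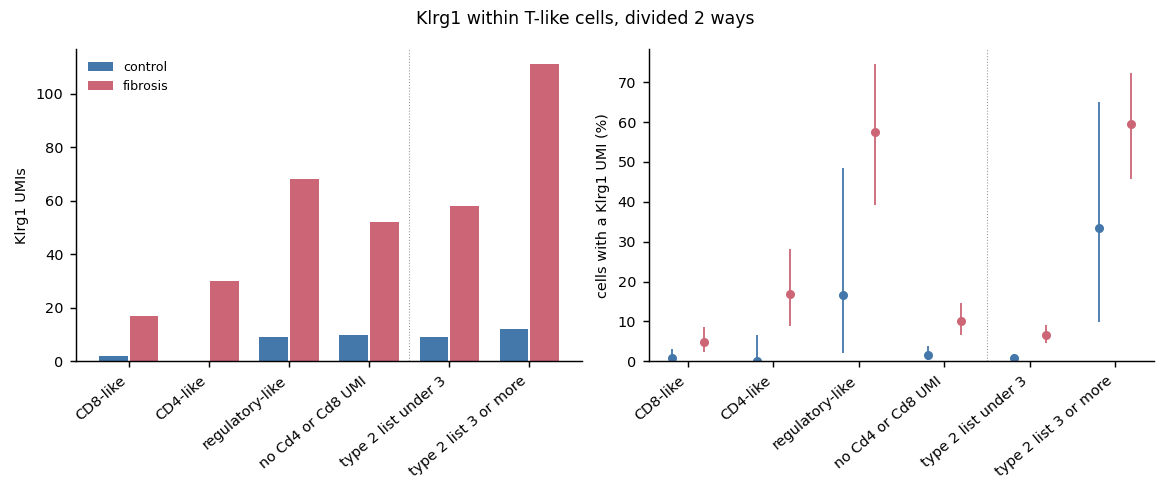
UMIs of Klrg1 (left) and share of cells with a Klrg1 UMI (right, %, with exact 95% intervals) in T-like cells, divided by Cd4, Cd8a, Cd8b1 and Foxp3 and, right of the dotted line, by the type 2 list; the divisions overlap. Regulatory-like cells held 9 UMIs in control lung and 68 in fibrosis lung, and CD8-like cells held 2 and 17.

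Gzmb had 112 UMIs in control and 42 in fibrosis T-like cells, or 69.8 and 25.6 CPM, a log2 ratio of −1.44 (−2.00 to −0.93). Few cells carried it, 27 and 18, and the 5 cells with most UMIs held 54.5% and 50% of the total. The regulatory-like cells held 31 UMIs in 4 of 12 control cells and 3 UMIs in 1 of 33 fibrosis cells. CD4-like cells held 18 and 0 UMIs, and CD8-like cells 40 and 27. Of the 8 control T-like cells with Klrg1, 7 also had Gzmb, whereas 7.46% of the 67 fibrosis cells did. By Leiden clusters the log2 ratio was −0.53.

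Gzma had 147 UMIs in control and 249 in fibrosis T-like cells, with a log2 ratio of 0.72 (0.43 to 1.03). The same number of cells, 31, carried it in each library, and 5 cells held 78.9% and 79.9% of the UMIs. One control cell alone held 80 UMIs and one fibrosis cell 58. Cycling T-like cells, those with at least 2 UMIs of a proliferation list, held 27 UMIs in 5 control cells and 157 UMIs in 6 fibrosis cells, and the log2 ratio without cycling cells was −0.37 (−0.78 to 0.03). It was −0.42 when the level in neutrophil-like cells of the same library was subtracted. The fibrosis level subtracted, 94.0 CPM, came from 5 of 149 neutrophil-like cells. In that library B-like, mononuclear-like and epithelial-like cells were at 10.6, 11.6 and 9.78 CPM.

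Nkg7 and Klrd1 marked the CD8-like cells among T-like cells. Nkg7 was detected in 83.2% of control and 74.3% of fibrosis CD8-like cells, at 860 and 792 CPM, and in 16.7% and 10.8% of CD4-like cells. Klrd1 was at 205 and 170 CPM in CD8-like cells and at 11.8 and 14.5 CPM in CD4-like cells. Over all T-like cells the log2 ratio was −0.36 for Nkg7 and −0.49 for Klrd1, neither past the fold. Klrk1, at 31.8 and 30.4 CPM, had a ratio of −0.06. Gzmk was rare, with 12 and 13 UMIs in T-like cells, but these were 54.5% and 72.2% of all Gzmk UMIs in each library.

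Among the other genes in T-like cells, 5 of 8 transcription factors were higher by 1.5-fold and none was lower, beside 15% and 6.89% of all genes tested there. They were Zeb2 (log2 ratio 1.74), Ikzf2 (1.40), which encodes Helios of regulatory T cells, Tox (0.90), Id2 (0.69) and Prdm1 (0.68). Prdm1 rested on 15 and 25 UMIs, with an interval of −0.28 to 1.73. Il2ra was the 1 of 7 genes of the IL-15 and IL-2 axis past the fold, at 2.09. Of 13 granule genes, Gzmm (0.73), Serpinb9 (0.87) and Tnfsf10 (0.70) were higher, each with an interval that includes no difference. Of 8 maturation genes, Cx3cr1 (1.06) was higher, and Cd27 (−0.70), Ly6c2 (−0.72), Cd7 (−0.86) and Xcl1 (−0.87) were lower. Of 6 receptors, Cd160 (−0.61) and Crtam (−0.77) were lower, and none of 6 adaptors passed the fold. The intervals of Xcl1, Cd160 and Crtam also include no difference.

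Outside the lymphoid classes, Klrd1 and Klrk1 were found in dendritic cells. In DC-like cells Klrd1 had 116 UMIs (155 CPM) in the control and 227 UMIs (135 CPM) in the fibrosis library, where Gzma had 2 and 16. Klrd1 was detected at 1000 UMIs per cell in 16.5% and 15.7% of DC-like cells, against 0.34% and 0.81% of B-like cells. For every 100 Gzma UMIs there were 11.1 and 10.6 Klrd1 UMIs in NK-like cells and 5800 and 1419 in DC-like cells, the latter on 2 and 16 Gzma UMIs. The part of free transcripts in these values was not tested. Klrd1 was higher in cells with Cd209a, a marker of conventional type 2 and monocyte-derived dendritic cells, at 195 and 198 CPM, than in cells with Xcr1 or Clec9a, markers of conventional type 1 cells, at 79.8 and 74.7 CPM. In pDC-like cells it was at 216 and 270 CPM. Klrk1 was at 42.7 and 39.2 CPM in DC-like cells.

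Of 10 ligand genes present in the tables, Cdh1, Cfp and H2-T23 are described. H2-T23 encodes Qa-1, which presents peptides to the CD94 receptors, and it was widespread but uneven. It was at 164 CPM in control and 101 CPM in fibrosis endothelial-like cells, and at 15.9 and 17.2 CPM in epithelial-like cells. Its log2 ratio in NK-like cells was −0.63 (−1.40 to 0.06), the 1 ligand gene tested there. Cdh1 encodes E-cadherin, a ligand of KLRG1. It was at 233 and 265 CPM in epithelial-like cells, and at 9.47 CPM in control and 64.8 CPM in fibrosis mononuclear-like cells. Cdh1 was also higher in fibrosis neutrophil-like (6.57 and 38.4 CPM), DC-like (10.7 and 25.6 CPM) and B-like cells (2.56 and 12.5 CPM). Cdh1 rested on 3 and 3 UMIs in endothelial-like cells (4.27 and 3.77 CPM) and on 5 and 3 in stromal-like cells (11.7 and 5.59 CPM). The intervals of the libraries overlapped in both of these classes, and also in DC-like cells. The part of free transcripts in these levels was not tested. Cfp, which encodes the complement factor properdin, was at 163 and 115 CPM in mononuclear-like cells. In T-like cells Cdh1 had 8 and 17 UMIs and was the 1 of 2 ligand genes past the fold, at 1.01 (−0.24 to 2.47).

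Across classes, the genes whose levels were most like those of the members were lymphoid genes. Likeness was the Pearson correlation of log2(CPM + 1) over 9 classes in both libraries, 18 points that share libraries and gates, among 12765 genes. Nkg7 was most like Ctsw (0.98), Gzmb most like Nkg7 (0.96), and Klrd1 and Klrk1 most like each other (0.96). Ncr1 was most like Cma1 (0.96), Prf1 most like Samd3 (0.97), and Klrg1 most like Ctsw (0.94). Gzma was most like Klra8 (0.95), a gene of the NK gate itself. Gzmk, with 40 UMIs in all kept cells, was most like Gm20069.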

How the data were processed

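Per the submitters' processing notes, reads were handled with bcl2fastq and Cell Ranger 1.3 on mm10. Per the labels' protocols, cells were captured with the 10x Genomics 3′ chemistry. The authors deposited raw UMI counts per gene and cell, without normalisation. Cells with under 200 genes or over 10% mitochondrial UMIs were left out (1 and 254 control cells, 0 and 228 fibrosis cells). Doublets were scored with scrublet in scanpy 1.11.5. Its threshold marked 0.187% of control and 2.29% of fibrosis cells, so the highest scores were removed from both by 1 rule, at 0.8% per 1000 cells (515 and 386 cells).

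Cells were gated on raw UMIs of 12 marker lists. A list won with at least 2 UMIs (ILC2 list 3) where every list of another lineage had at most 1 UMI or at most 25% of its sum. The class names come from these gates on transcripts, and the study may have named cells otherwise. Counts were summed per class and library. Intervals are exact Poisson for CPM, exact conditional binomial for ratios and Clopper-Pearson for shares. These intervals cover counting error only. Ratios had 0.5 UMI added to each sum and were computed for all genes with at least 20 UMIs in a class. A gene counted as higher or lower past 1.5-fold. All 9 members were named, and from the other lists the genes past that fold. The ratio step was tested on simulated counts. Positions came from GENCODE M21 on GRCm38. The members and the lists were chosen with earlier results of these data known. Tcrg-C1, Trdc, Pclaf and Nectin2 did not match a symbol in the files. Alternatives covered doublets, gates, depth, thinning, clustering, background and the fold.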

Additional observations from a re-analysis of the deposited data

Results flagged for a closer look

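The log2 ratio of Gzma between the libraries was −0.40 in NK-like cells and 0.72 in T-like cells, opposite in direction with intervals that both leave out 0. The difference between the 2 classes was not tested, since each library came from 1 mouse. In T-like cells, 5 cells held 79.9% of the Gzma UMIs of the fibrosis library and 78.9% of those of the control library, and the ratio was −0.37 without cycling cells.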

How the results depend on the processing

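No paired analysis was possible because each group had 1 library, and for the same reason no replicate could be left out. Of the values compared, 385 stayed close to the value reported and 77 moved. The log2 ratio of Gzma in T-like cells reversed to −0.37 without cycling cells and to −0.42 with the neutrophil-like level subtracted. In the fibrosis library that level came from 5 of 149 neutrophil-like cells. The cause of the reversals was not tested. The median log2 ratio in NK-like cells was −0.46 by Leiden clusters, −0.20 at the same UMI floor, −0.49 in thinned cells and −1.02 with no limit on other lineages. In T-like cells it was 0.19 with the strict gate, 0.35 thinned, 0.067 without type 2 list cells, −0.47 with the neutrophil-like level subtracted, −0.23 with no limit on other lineages and −0.37 without cycling cells. The number of members higher in NK-like cells was 0 at 2-fold, by Leiden clusters, with no limit on other lineages and without cycling cells. The number lower was 1 by Leiden clusters, with the strict gate, thinned and without cycling cells, and 7 with no limit on other lineages. In T-like cells, the number higher was 1 at 2-fold, by Leiden clusters, with a gate of 3 UMIs, with no doublets removed, with the strict gate, with no limit on other lineages and without cycling cells. The number lower was 0 by Leiden clusters and 2 with no minimum of UMIs or thinned. The shares of all genes given above hold for the main setting only, so nothing particular to the members is read from these counts. NK-like cells were 2.63% of control cells at the same UMI floor and 2.78% with the strict gate, and 1.31% of fibrosis cells with the strict gate and 3.29% with no limit on other lineages. They held, of control member UMIs, 74.2% with a gate of 3 UMIs, 65.2% with no doublets removed, 66.0% at the same UMI floor, 51.8% with the strict gate, 83.3% thinned and 80.0% with no limit on other lineages. Of fibrosis member UMIs they held 53.8% by Leiden clusters, 46.0% with no doublets removed, 31.1% with the strict gate, 60.7% thinned and 68.0% with no limit on other lineages. The alternatives without type 2 list cells, without cycling cells, with the neutrophil-like level, with unequal doublet removal and with no limit on other lineages were chosen after seeing the data.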
